A study of Mus musculus with 15 samples.

Results

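The genes described here are 10 transcription factors best known from lymphocytes: the Ikaros family members Ikzf1, Ikzf2 and Ikzf3, the zinc-finger factor Bcl11a, the HMG-box factors Sox4 and Lef1, the E protein Tcf4, the ETS factor Ets1, the chromatin organizer Satb1 and the repressor Bach2. They are 10 of the 53379 genes listed, picked by symbol. The list was drawn up with results of these libraries known, so the members' own differences between groups are given as a description, with the outcome of the test across all genes but without p-values.

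RNA was sequenced from mouse fetal liver cells that carry floxed Cebpa and Cebpb alleles and were transformed with a retrovirus encoding MLL-ENL, a fusion oncogene of acute leukemia. The labels name 2 lines, C1 and C2. The study describes its WTFL and dKO transcriptomes as those of clones from different mice before and after the deletion, and partly deleted clones were pooled before the last Cre treatment. All cells were grown with 10 ng/ml IL-3. There were 5 groups of 3 libraries. WTFL cells (labelled wild-type) kept the floxed alleles and have no GFP in their labels. The dKO cells of each line lack Cebpa and Cebpb after treatment with TAT-Cre, a cell-permeable recombinase, and carry GFP; they are rare surviving clones. The dKO-LAP* cells, sequenced here for line C1 only, are dKO cells with GFP and a retrovirus for LAP*, the longest isoform of rat C/EBPβ. The 3 libraries of a group are RNA samples taken from 1 line at different times, so every difference between groups is one between these lines, and gene loss, clone and viral vector cannot be told apart within a line. Measured levels are reads per gene divided by the size factor of the library (normalized reads), given as mean ± SD with n = 3.

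Ikaros family proteins bind DNA through N-terminal zinc fingers, pair with each other through C-terminal ones and recruit chromatin-remodelling and deacetylase complexes. Together with E proteins, ETS and RUNX factors they set up the lymphoid programs of early progenitors, in which the myeloid factors C/EBPα and C/EBPβ act in the opposing direction. Several of the 10 genes are also expressed in stem and multipotent progenitor cells and in leukemias.

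Promoter sequences are shown for the pair of members with the most contrasting patterns between the lines: Sox4, whose level was higher in dKO cells of both lines, and Bcl11a, which was read at more than a trace in WTFL cells of line C1 alone. Each window runs from 250 bases before to 50 bases after a transcription start (RefSeq, GRCm38.p6) and is printed 5′ to 3′ on the gene's strand, with the letters TGGGAA, the core bound by Ikaros proteins, in capitals.
Sox4 promoter, chr13:28953650-28953949, minus strand: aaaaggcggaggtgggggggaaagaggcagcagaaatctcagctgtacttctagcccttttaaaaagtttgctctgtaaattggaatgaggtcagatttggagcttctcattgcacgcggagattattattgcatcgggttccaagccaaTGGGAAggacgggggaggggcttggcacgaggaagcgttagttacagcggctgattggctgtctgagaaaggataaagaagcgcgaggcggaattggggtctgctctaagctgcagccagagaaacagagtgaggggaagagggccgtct
Bcl11a promoter, chr11:24080445-24080744, plus strand: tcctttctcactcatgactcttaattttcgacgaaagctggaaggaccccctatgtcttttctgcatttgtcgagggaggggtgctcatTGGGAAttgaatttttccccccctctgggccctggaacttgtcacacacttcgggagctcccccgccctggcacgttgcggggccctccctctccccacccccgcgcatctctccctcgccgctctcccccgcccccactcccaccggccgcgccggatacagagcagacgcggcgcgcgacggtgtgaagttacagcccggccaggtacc
The capitals begin 100 bases before the start in the Sox4 window and 161 bases before it in the Bcl11a window. The Sox4 window has a GC content of 52.0% with 12 CpG dinucleotides, and the Bcl11a window one of 63.0% with 23, against medians of 52.7% and 7 over all 32851 mouse windows. In all, 14 windows of 6 members were matched (Lef1, Bach2, Ikzf1, Bcl11a, Sox4 and Satb1). TGGGAA was present, on either strand, in 7 of these 14 windows, at 6 distinct sites since overlapping Lef1 windows share 1, and in 25.6% of all windows, which can overlap in the same way. The C/EBP motif TTGCNNAA (in 10.8% of all windows), the ETS motif CCGGAAGT (3.89%) and the RUNX motif TGTGGTT (5.27%) had no match in the 14 windows, which says only that these letters are not in these 300 bases.

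The libraries held 9212237 to 13613500 reads on genes (median 11885279). Cebpa and Cebpb were listed at 0 in all 6 dKO libraries, whereas WTFL cells had 1101 ± 292 and 1963 ± 307 normalized reads of Cebpa and 1454 ± 90.7 and 1467 ± 148 of Cebpb in lines C1 and C2. Cebpb was read again in dKO-LAP* cells (3106 ± 961), where the introduced cDNA is that of the rat. The libraries carried the markers of the labelled myeloid cells: all 9 myeloid progenitor markers, among them Mpo, Elane and Kit, were read in every group. Their sum was 102084 to 116388 normalized reads per library in WTFL cells and 142508 to 207844 in dKO and dKO-LAP* cells. Mpo, Elane and Kit were higher in dKO than in WTFL cells of both lines, whereas Lyz2 was lower in line C1 and Ctsg in line C2. The summed T cell markers (8 genes) had 11.8 to 76.7 normalized reads per library, largely from the kinase gene Lck, which was at 62.4 ± 14.1 in WTFL cells of line C2 against 18.5 ± 6.70 in those of line C1 (log2 fold change 1.74, SE 0.34, adjusted p = 0.00072, limma). Cd3g reached 6.96 ± 4.32 in dKO cells of line C2, and Cd4, Cd8a and Cd2 were at 0 in all libraries. The summed natural killer cell markers (4 genes) had 0 to 2.10, with the receptor Ncr1 at 0 in all libraries, and the erythroid markers (3 genes in the table) had 3.06 to 23.8. The third WTFL library of line C1 stood furthest from the other libraries of its group.

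Of the 10 members, 6 reached 10 normalized reads in at least 3 libraries and entered the test (limma on log2 normalized reads, 12673 genes, adjusted p under 0.05), and 4 did not (Ikzf3, Satb1, Bach2 and Lef1). Ikzf2 passed the minimum only through dKO and dKO-LAP* cells and Bcl11a only through WTFL cells of line C1, so these had to differ. In line C1, 5 of the 6 passed the test between dKO and WTFL cells, with Ikzf2, Sox4 and Ets1 higher and Bcl11a and Tcf4 lower, where 37.0% of all tested genes passed (17.1% higher and 19.9% lower). In line C2, 4 of the 6 passed, with Ikzf1, Ikzf2 and Sox4 higher and Ets1 lower, against 37.6% of all genes (17.4% higher and 20.1% lower). Between dKO-LAP* and dKO cells only Ikzf2 passed, at a lower level, against 4.46% of all genes (1.43% higher and 3.03% lower). That last share rests on 565 genes and is unsteady, with 276 to 728 passing when 1 library was left out. The members were picked with these contrasts in view, so nothing is read from their counts against these shares.

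**Figure D1:**
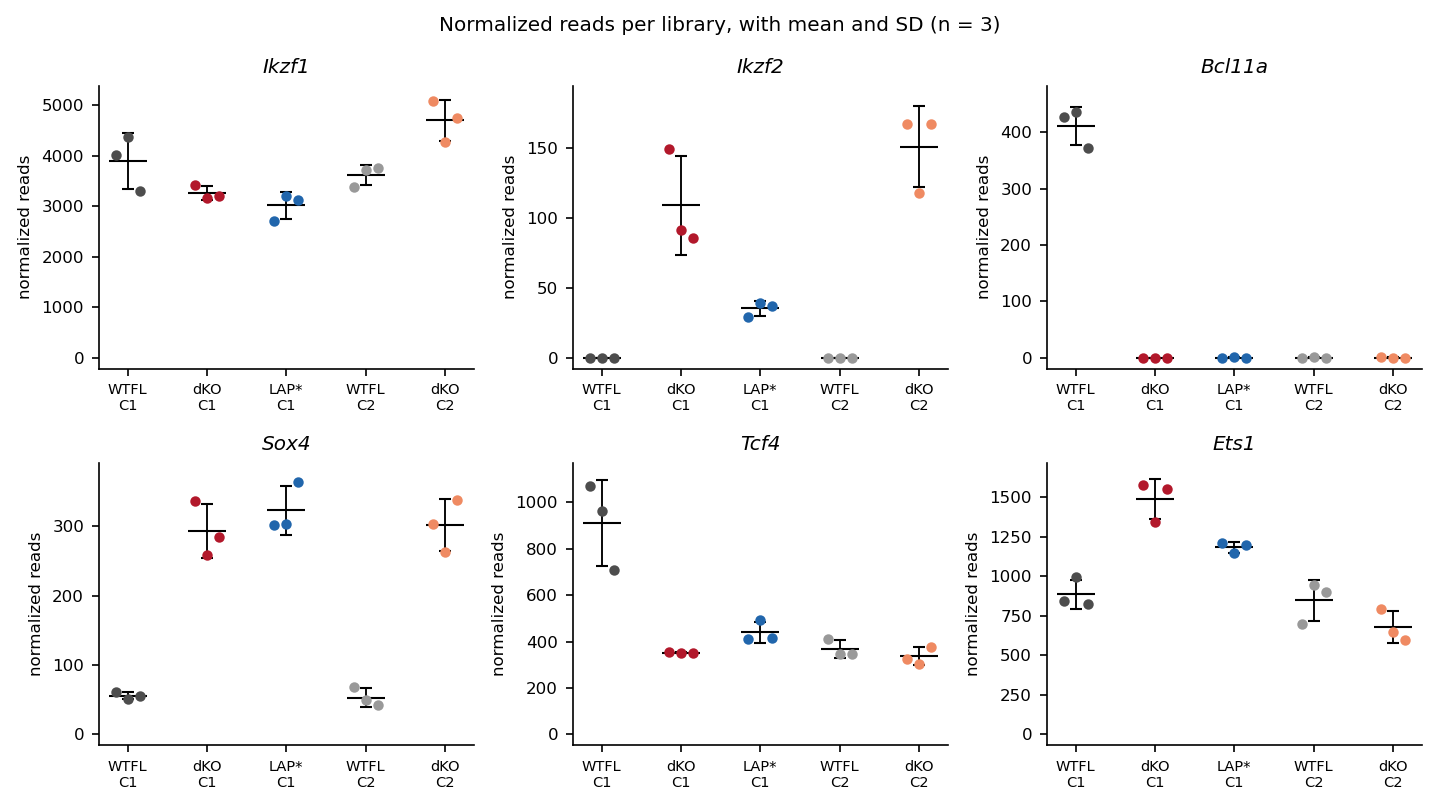
Normalized reads (vertical axes) of the 6 tested members in each of the 15 libraries (points), by group, with mean and SD (bars, n = 3). Sox4 and Ikzf2 sit higher in dKO than in WTFL cells of both lines, whereas the Bcl11a points of line C1 WTFL cells, at 372 to 435, stand alone.

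Ikzf1 (ENSMUSG00000018654, chromosome 11, 11685003 to 11772926, mm10) encodes Ikaros, which lymphoid development requires. Its 3 libraries of line C1 held 4010, 4375 and 3300 normalized reads in WTFL cells, 3419, 3160 and 3195 in dKO cells and 2717, 3208 and 3130 in dKO-LAP* cells. In line C2 they held 3387, 3710 and 3754 in WTFL and 5075, 4275 and 4750 in dKO cells. The dKO libraries of line C2 were thus all above its WTFL libraries, while the ranges of line C1 overlapped. The log2 fold change between dKO and WTFL cells was −0.25 (standard error, SE, 0.10) in line C1, which did not pass, and 0.38 (SE 0.10) in line C2, a 1.30-fold higher level, which did. The effects of the 2 lines differed by 0.62 (SE 0.14) on the log2 scale, and this difference passed. Without the third WTFL library of line C1, the lowest of the 3, the change of that line was −0.36 and passed. The dKO-LAP* cells had 3018 ± 264 and were 1.29-fold below WTFL cells, a log2 fold change of −0.36 (SE 0.10). That call was lost when the second WTFL or the first dKO-LAP* library was left out and when the groups were fitted alone, and against dKO cells the change was −0.11 (SE 0.10) and did not pass.

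Per kb of exon, Ikzf1 was the most abundant of the 10 members in every group, at 674 ± 94.6 normalized reads per kb in WTFL cells of line C1 and 814 in dKO cells of line C2. Ets1 came next in all 5 groups (80.1 to 176 per kb). In WTFL cells of line C1, Tcf4 (33.4 ± 6.76) and Bcl11a (31.2 ± 2.60) followed and did not differ beyond their spread, and in those of line C2 the same held for Tcf4 (13.4 ± 1.43) and Sox4 (11.1 ± 2.75). Sox4 had the third place in the other 3 groups (61.1 to 67.4), where in dKO cells of line C2 its range met that of Ets1 (80.1 ± 12.1) and Ikzf2 (13.0 ± 2.47) and Tcf4 (12.3 ± 1.39) lay within their spread. Bcl11a, among the abundant members in WTFL cells of line C1, was at the floor in the other groups. The order between members depends on the merged exon length used, 27382 bases for Tcf4 and 8476 for Ets1. Before division by length, Tcf4 (913 ± 185) and Ets1 (887 ± 92.9) lay within their spread in WTFL cells of line C1.

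Ikzf2 (ENSMUSG00000025997, chromosome 1, 69531214 to 69687245) encodes Helios, known from regulatory T cells and from stem cells. It had no read in any of the 6 WTFL libraries. The dKO libraries held 149, 91.2 and 85.6 normalized reads in line C1 and 167, 118 and 167 in line C2, and the dKO-LAP* libraries 29.5, 39.6 and 37.4. The dKO and WTFL groups were apart in both lines, and the dKO-LAP* libraries lay between them without touching either. Against a floor of 3 reads per library, which covers counting error only, Ikzf2 was at least 33.4-fold higher in dKO than in WTFL cells of line C1 and at least 50.9-fold higher in line C2. The fitted effects of the lines differed by 0.49 (SE 0.38) on the log2 scale, which did not pass. In dKO-LAP* cells its level was 3.06-fold lower than in dKO cells, a log2 fold change of −1.55 (SE 0.27) that passed, and it was still at least 10.9-fold above WTFL cells. The call held in all 8 alternative settings and with each of the 15 libraries left out, with log2 fold changes of −1.70 to −1.30 in the latter.

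Ikzf3 (ENSMUSG00000018168, chromosome 11, 98464902 to 98546031) encodes Aiolos, a factor of maturing B cells. It was read at 15.9, 9.44 and 3.53 normalized reads in dKO cells of line C1, at 5.08, 1.84 and 0.910 in dKO-LAP* cells and at 0, 0.900 and 0 in WTFL cells. In line C2 the values were 6.28, 4.86 and 4.29 in dKO cells and 0 in all WTFL libraries. All dKO libraries were thus above all WTFL libraries, at levels that were too low for the test. The reads of line C1 gave a ratio of 25.8 between dKO and WTFL cells (exact 95% counting interval 4.25 to 1056), and the level in dKO cells of line C2 was at least 1.74-fold above WTFL cells.

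Within the 3 family members per kb of exon, Ikzf1 made up 98.2% ± 0.545 of the signal in dKO cells of line C1 and 98.4% ± 0.186 in those of line C2. The share of Ikzf2 was 1.62% ± 0.441 and 1.56% ± 0.191 in these, 0.579% ± 0.0388 in dKO-LAP* cells and 0 in WTFL cells. The share of Ikzf3 was at most 0.299% in a library. Helios and Aiolos transcripts were thus a small addition to a large amount of Ikaros transcript.

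Bcl11a (ENSMUSG00000000861, chromosome 11, 24078056 to 24174123) encodes a zinc-finger repressor that B cells and plasmacytoid dendritic cells need and that silences fetal globin genes. WTFL cells of line C1 had 427, 435 and 372 normalized reads, and the dKO libraries of that line had none. The dKO-LAP* libraries held 1 read in all, the WTFL libraries of line C2 also 1 read, and its dKO libraries 2. Bcl11a was therefore a transcript of 1 of the 5 groups. It was at least 134-fold lower in dKO than in WTFL cells of line C1. In WTFL cells of line C2 the level was 0.000798 times that of line C1 WTFL cells (exact 95% counting interval 0.0000202 to 0.00446). This is a description, since Bcl11a entered the test only through WTFL cells of line C1. No fold is given within line C2 or between dKO-LAP* and dKO cells, where both groups lay at the floor. The Bcl11a promoter window printed above belongs to a start that RefSeq lists inside the span of the annotated gene.

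Sox4 (ENSMUSG00000076431, chromosome 13, 28948919 to 28953713), a gene with a single exon, encodes an HMG-box factor of early B and T cell progenitors that is also known as an oncogene in myeloid leukemia. WTFL cells held 61.5, 50.5 and 56.0 normalized reads in line C1 and 67.7, 49.3 and 42.1 in line C2. The dKO cells held 336, 259 and 284 in line C1 and 303, 263 and 338 in line C2, and the dKO-LAP* cells 302, 303 and 364. Every library without the Cebpa and Cebpb genes was above every WTFL library. The level was 5.23-fold higher in dKO than in WTFL cells of line C1, a log2 fold change of 2.36 (SE 0.17), and 5.68-fold higher in line C2, one of 2.51 (SE 0.17). The effects of the lines differed by 0.14 (SE 0.24), and the dKO-LAP* and dKO levels by 0.14 (SE 0.17), both on the log2 scale and neither past the threshold. Against WTFL cells, dKO-LAP* cells were 5.76-fold higher. Both dKO calls held in all 8 alternative settings and with each library left out.

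**Figure D2:**
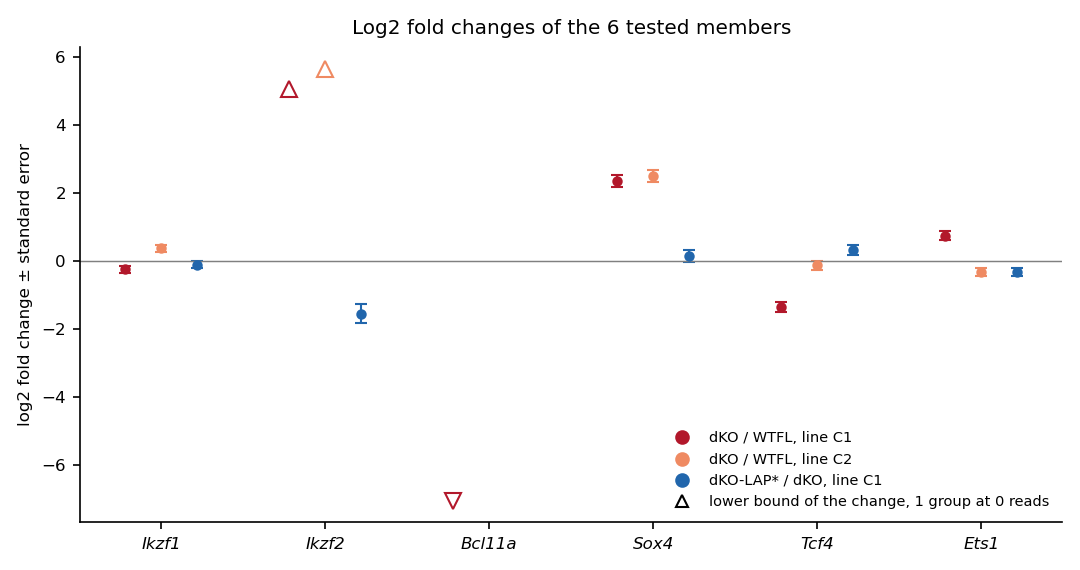
Log2 fold changes with SEs (vertical axis) of the 6 tested members in 3 comparisons. Triangles stand for lower bounds where all libraries of 1 group had 0 reads, and comparisons with both groups at the floor are left out. Sox4 lies at 2.36 and 2.51 in the 2 lines, whereas Ikzf1, Tcf4 and Ets1 lie apart between them.

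Tcf4 (ENSMUSG00000053477, chromosome 18, 69343356 to 69689079) encodes E2-2, an E protein and the leading factor of plasmacytoid dendritic cells. The WTFL libraries of line C1 held 1070, 961 and 709 normalized reads, the dKO libraries 354, 351 and 349 and the dKO-LAP* libraries 412, 494 and 415. In line C2 they held 413, 346 and 345 in WTFL and 327, 304 and 379 in dKO cells. The WTFL cells of line C1 stood above all others, and the WTFL and dKO ranges of line C2 overlapped. In line C1 the level was 2.60-fold lower in dKO cells, a log2 fold change of −1.35 (SE 0.14), whereas line C2 changed by −0.13 (SE 0.14), which did not pass. The difference between these effects was 1.22 (SE 0.19) and passed, as did that between the WTFL cells of the lines, 2.48-fold lower in line C2. The dKO-LAP* libraries were all above the dKO libraries, a log2 fold change of 0.32 (SE 0.14) that did not pass, and were 2.07-fold below WTFL cells. Without the third WTFL library of line C1, the lowest of its group, the change in dKO cells of that line was −1.52.

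The E proteins act as dimers that Id proteins block. The other E proteins, singled out here after their values were seen, also had effects that differed between the lines. Tcf3 had log2 fold changes of 0.13 (SE 0.08, adjusted p = 0.21, limma) in line C1 and 0.62 (SE 0.08, adjusted p = 2.0e-05, limma) in line C2, and Tcf12 had −0.54 (SE 0.06, adjusted p = 6.4e-06, limma) and 0.29 (SE 0.06, adjusted p = 0.0022, limma). The effects of the lines differed by 0.49 (SE 0.11, adjusted p = 0.0042, limma) for Tcf3 and by 0.83 (SE 0.09, adjusted p = 7.2e-06, limma) for Tcf12. Id2 stood at 132 ± 42.1 in WTFL cells of line C1 and rose to 425 ± 58.7 in its dKO cells, a log2 fold change of 1.72 (SE 0.40, adjusted p = 0.0028, limma). In line C2 it had 59.8 ± 36.2 and 46.7 ± 12.7, and the effects of the lines differed by −1.87 (SE 0.56, adjusted p = 0.019, limma), a call lost without the second or the third WTFL library of line C2. In line C1, Id2 was thus higher and Tcf4 lower in the same libraries.

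Ets1 (ENSMUSG00000032035, chromosome 9, 32636221 to 32757820) encodes the founding ETS factor, which T, B and natural killer cells use. In line C1 the WTFL libraries gave 844, 993 and 822 normalized reads, the dKO libraries 1578, 1345 and 1551 and the dKO-LAP* libraries 1209, 1146 and 1201. Line C2 held 700, 948 and 900 in WTFL and 793, 648 and 595 in dKO cells. The 3 groups of line C1 did not overlap, whereas the WTFL and dKO ranges of line C2 did. The log2 fold change between dKO and WTFL cells was 0.75 (SE 0.12) in line C1, a 1.68-fold higher level, and −0.32 (SE 0.12) in line C2. The latter passed with little margin and lost its call in 7 of 8 alternative settings and in 10 of the 15 fits with a library left out, so that 3 of the 6 members pass in line C2 without it. The 10 were those without the second or the third WTFL or dKO library of line C2, any dKO-LAP* library, the first WTFL or the first or the third dKO library of line C1. The difference between the lines, −1.07 (SE 0.17), passed in all of these. The dKO-LAP* level was below that of dKO cells by a log2 fold change of −0.33 (SE 0.12) that did not pass, and 1.34-fold above that of WTFL cells, a call lost without the first WTFL library of line C1.

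Satb1 (ENSMUSG00000023927, chromosome 17, 51736187 to 51833290), the chromatin organizer of thymocytes, was near the detection limit. In line C1, WTFL libraries gave 4.01, 6.31 and 3.06 normalized reads, dKO libraries 5.66, 4.20 and 4.41 and dKO-LAP* libraries 4.06, 6.45 and 6.38, ranges that overlapped. Line C2 had 0, 1.05 and 0 in WTFL and 7.32, 3.89 and 7.51 in dKO cells. Here the groups were apart, and the reads gave a ratio of 18.8 (exact 95% counting interval 2.97 to 784). Bach2 (ENSMUSG00000040270, chromosome 4, 32238804 to 32586108), a repressor that pairs with small Maf proteins in B and T cells, had at most 3.53 normalized reads in a library. Lef1 (ENSMUSG00000027985, chromosome 3, 131110471 to 131224356), the nuclear partner of β-catenin in lymphoid progenitors, had 1 read in 1 dKO-LAP* library and none elsewhere. Expression of Lef1 was not detectable at this depth, and that of Bach2 was at or near the floor of 3 reads.

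**Figure D3:**
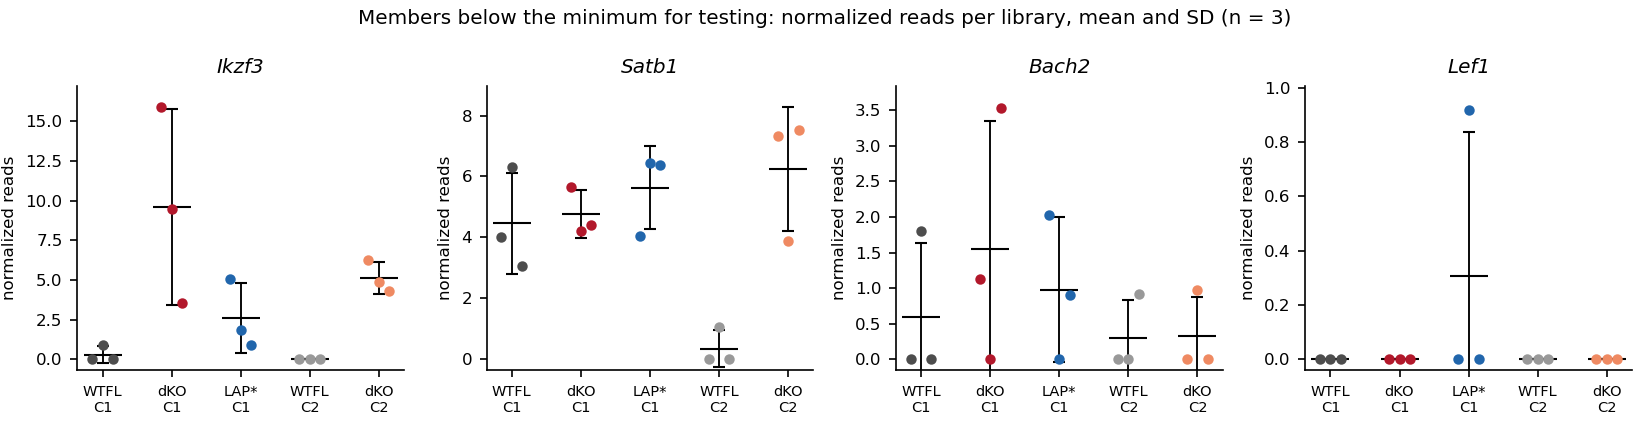
Normalized reads (vertical axes, each with its own scale) of the 4 members under the minimum for testing, in each library (points), with mean and SD (bars, n = 3). Ikzf3 reaches 15.9 in dKO cells of line C1, and Lef1 shows a single read.

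Levels that set the lines apart in WTFL cells were seen for Bcl11a and Tcf4, the 2 of 6 tested members that passed between them, both lower in line C2 (Bcl11a had to differ, as above), against 41.0% of all genes (19.7% higher and 21.3% lower). Between the dKO effects of the lines, 4 of 6 members differed (Ikzf1, Tcf4, Ets1 and Bcl11a, of which the last had to), against 29.4% of all genes (15.1% higher and 14.3% lower in line C2). Between dKO-LAP* and WTFL cells all 6 tested members passed, with Ikzf2, Sox4 and Ets1 higher and Ikzf1, Bcl11a and Tcf4 lower, against 32.5% of all genes (14.2% higher and 18.3% lower). This comparison shares libraries with those against dKO cells. After quantile normalization the share of higher calls over all genes moved from 46.3% to 56.6% for dKO against WTFL cells of line C1 and from 43.6% to 56.9% for dKO-LAP* against WTFL cells. It moved from 46.4% to 51.3% for dKO against WTFL cells of line C2, from 48.0% to 54.8% between the WTFL cells and from 51.3% to 47.7% between the lines' effects. Between dKO-LAP* and dKO cells it was 32.0% and 35.6%. No tested member changed direction.

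The WTFL cells of line C1, in which Bcl11a and Tcf4 were high, also differed in markers of other cells. The summed B cell markers reached 131 to 171 normalized reads in these libraries, through Cd79b, Cd22 and Igll1 (3 of 7 markers), against 8.74 to 35.9 in the other groups. The summed plasmacytoid dendritic cell markers reached 2004 to 6596, through Bst2 and Irf8 (2 of 4), against 389 to 769 in the other groups. Bst2 was uneven, at 5597, 3371 and 1197 in these 3 libraries. Irf8 (999, 850 and 806), Tcf4 (1070, 961 and 709) and Bcl11a (427, 435 and 372) varied less. Pax5, which defines B cells, was at 0 in these 3 libraries, and Siglech, which defines plasmacytoid dendritic cells, was at 0 in all libraries. In bulk RNA, more cells of a type and more RNA per cell cannot be told apart, and the part of these markers in the levels of Bcl11a and Tcf4 was not tested.

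Close relatives of the members and other genes of their pathways are counted by list, with 37.0% of all genes passing in line C1 and 37.6% in line C2 as above. In these lists Sox12, Prdm1, Il7r and Ccr9 reached the minimum of 10 normalized reads in 1 group only, and Flt3 and Zbtb16 only in dKO and dKO-LAP* cells, so these had to differ from the groups below it. They are part of the counts, but their values in dKO and WTFL cells are given without p-values. Tcf7 reached that minimum only in dKO and dKO-LAP* cells of line C1 and in WTFL cells of line C2, and is treated alike. Of 12 paralogs 9 were tested, and in dKO against WTFL cells 2 rose and 4 fell in line C1 and 3 rose and 3 fell in line C2, that is 6 of 9 in each, with medians of 0.01 and −0.18 on the log2 scale, while the median of all genes was −0.01 and −0.03. Ikzf4, which encodes the Ikaros family factor Eos, rose in both lines, from 10.9 ± 5.61 to 52.1 ± 4.54 normalized reads in line C1 (log2 fold change 2.26, SE 0.33, adjusted p = 5.9e-05, limma). In line C2 it rose from 3.92 ± 0.829 to 16.5 ± 2.67 (1.84, SE 0.33, adjusted p = 0.00042, limma). In dKO-LAP* cells Ikzf4 had 25.7 ± 10.6, which did not pass against dKO cells. Sox12, a group C SOX factor like Sox4, had 59.2 ± 31.7 in WTFL and 1.65 ± 2.01 in dKO cells of line C2. In line C1 it was near the floor throughout, at 3.78 ± 2.65 in WTFL cells and at 0 in dKO cells, a call lost without the second WTFL library, with edgeR and under a pseudocount of 5.

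Among the relatives of Lef1, the lines went apart. Tcf7 (TCF-1), a T cell factor, had 3.49 ± 1.38 in WTFL and 13.6 ± 1.96 in dKO cells of line C1 (1.73, SE 0.52), a call lost without the first WTFL library. In line C2 it had 37.6 ± 21.4 in WTFL and 6.19 ± 2.81 in dKO cells (−2.27, SE 0.52). The fitted effects of the lines differed by −4.00 (SE 0.73). This is a description, since within each line only the higher of these groups reached the minimum. Tcf7l2 fell in line C1 alone, from 123 ± 41.5 to 8.86 ± 3.14 (−3.64, SE 0.42, adjusted p = 5.3e-06, limma), against 44.0 ± 5.44 and 26.9 ± 16.2 in line C2, and the effects differed by 2.72 (SE 0.60, adjusted p = 0.0027, limma). None of the 9 paralogs passed between dKO-LAP* and dKO cells with limma, edgeR or DESeq2, where 4.46% of all genes passed with limma, and 3 had an unadjusted p under 0.05 (limma).

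Partners and inhibitors of the members were tested for 18 of 20 genes, and 2 rose and 5 fell in line C1 while 4 rose and 4 fell in line C2 (medians −0.10 and −0.07 on the log2 scale), shares near those of all genes (37.0% and 37.6%). Erg, an ETS factor of stem cells, rose in both lines, from 104 ± 14.8 to 308 ± 23.2 in line C1 (1.56, SE 0.23, adjusted p = 7.2e-05, limma) and from 15.6 ± 7.75 to 355 ± 22.2 in line C2 (4.52, SE 0.23, adjusted p = 8.6e-10, limma). Fli1, its close relative, fell in line C2 from 1601 ± 58.6 to 1070 ± 55.4 (−0.58, SE 0.09, adjusted p = 0.00016, limma). Cbfb, the partner subunit of RUNX factors, fell in line C1 from 2262 ± 404 to 1533 ± 402 (−0.58, SE 0.18, adjusted p = 0.02, limma), with overlapping ranges, a call lost without the first WTFL or the second or the third dKO library and when the groups were fitted alone. Runx1, which binds DNA together with Ets1, rose in line C2 from 469 ± 76.8 to 860 ± 57.3 (0.88, SE 0.12, adjusted p = 2.2e-05, limma), and had 1310 ± 104 and 1506 ± 151 in line C1, where it did not pass. Maff, which encodes a small Maf protein, fell in both lines, by 0.89 (SE 0.32, adjusted p = 0.036, limma) and 1.39 (SE 0.32, adjusted p = 0.0025, limma) on the log2 scale. The call of line C1 was lost in 2 of 8 alternative settings and in 5 of the 15 fits with a library left out (the first or second WTFL library or any dKO library of that line). Tle3, a corepressor of TCF and LEF factors, was the 1 gene of the 18 to pass between dKO-LAP* and dKO cells with limma (4.46% of all genes did), while edgeR called 1 and DESeq2 2 of them. It fell from 1199 ± 103 in WTFL to 964 ± 56.5 in dKO and 731 ± 45.0 in dKO-LAP* cells of line C1 (dKO-LAP* against dKO −0.40, SE 0.07, adjusted p = 0.0057, limma). Between dKO and WTFL cells Tle3 fell in both lines, by −0.31 (SE 0.07, adjusted p = 0.0038, limma) in line C1 and −0.26 (SE 0.07, adjusted p = 0.012, limma) in line C2.

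Of 19 other lymphoid factors, 11 were tested, and Ebf1 and Tox2 were at 0 in all libraries. In line C1 4 rose and 4 fell, and in line C2 3 rose and 2 fell (medians 0.07 and −0.10), beside 37.0% and 37.6% of all genes. Zbtb16, which encodes the innate lymphoid factor PLZF, was at 0 in WTFL cells of line C1 and at 82.7 ± 11.7 in dKO cells (at least 25.4-fold higher). In line C2 it had 1.93 ± 0.852 in WTFL and 228 ± 19.6 in dKO cells. In dKO-LAP* cells it had 41.3 ± 6.66, below dKO cells (−0.99, SE 0.25, adjusted p = 0.036, limma), a comparison of groups that both reached the minimum and a call that held in 3 of 8 alternative settings and in 8 of the 15 fits with a library left out. It was lost without the second or the third dKO-LAP* library, any dKO library of line C1 or the first or the third dKO library of line C2. Zbtb16 had in this respect the pattern of Ikzf2. Tox rose in both lines (2.62, SE 0.36, adjusted p = 3.2e-05 and 1.88, SE 0.36, adjusted p = 0.00073, limma), as did Runx3 (0.80, SE 0.08, adjusted p = 6.0e-07 and 0.40, SE 0.08, adjusted p = 0.00065, limma), while Nfil3 fell in both (−0.81, SE 0.23, adjusted p = 0.011 and −0.76, SE 0.23, adjusted p = 0.016, limma). The Nfil3 call was lost in line C1 without the first WTFL library and in line C2 without the second or the third WTFL or the first dKO library and when the groups were fitted alone. Foxo1 fell in line C2 from 48.1 ± 10.9 to 28.0 ± 6.77 (−0.76, SE 0.27, adjusted p = 0.035, limma), a call lost in 3 of 8 alternative settings and without the first or the third WTFL or the second or the third dKO library. Prdm1, a factor of plasma cells, had 15.8 ± 4.86 in WTFL and 2.37 ± 1.62 in dKO cells of line C1 and was at the floor in line C2. Pou2f2 (OCT2), a B cell factor, had the pattern of Bcl11a and Tcf4: it fell from 788 ± 139 in WTFL to 35.5 ± 13.5 in dKO cells of line C1 (−4.48, SE 0.30, adjusted p = 1.6e-08, limma) and was at 36.2 ± 8.36 and 52.6 ± 8.49 in line C2.

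Genes of the lymphoid program itself were tested for 9 of 20, and Rag1, Vpreb2 and Ly6d were at 0 in all libraries. In line C1 2 rose and 3 fell, and in line C2 5 rose and 1 fell (medians −0.31 and 0.30), beside 37.0% of all genes (17.1% higher and 19.9% lower) and 37.6% (17.4% and 20.1%). Flt3, a cytokine receptor of lymphoid-primed progenitors, was at 0 in WTFL cells of line C1 and at 62.2 ± 24.8 in its dKO cells (at least 19.1-fold higher). In line C2 it had 1 read in 3 WTFL libraries and 304 ± 45.7 in dKO cells, and dKO-LAP* cells had 75.1 ± 26.6. Il7r, the interleukin-7 receptor, had 49.6 ± 10.4 in WTFL and 0.940 ± 0.890 in dKO cells of line C1 and was near the floor in line C2. Igll1, a chain of the pre-B cell receptor, fell in line C1 from 29.0 ± 4.92 to 6.37 ± 4.73 (−2.23, SE 0.45, adjusted p = 0.0011, limma) and rose in line C2 from 0.683 ± 0.592 to 7.94 ± 3.43 (2.42, SE 0.45, adjusted p = 0.00059, limma). WTFL cells of line C2 had 2 reads of Igll1 in all, so the size of this change depends on the added constant and the tool (1.16 to 3.92 over the settings), and the ratio of the levels was 12.0 (exact 95% counting interval 2.97 to 105). Ccr9, a chemokine receptor, had 0.683 ± 0.592 in WTFL and 20.4 ± 14.1 in dKO cells of line C2. Notch1 rose in line C1, from 1221 ± 27.1 to 1895 ± 283 (0.62, SE 0.12, adjusted p = 0.00085, limma), and Cd93 fell in line C2, from 3968 ± 250 to 1007 ± 163 (−1.99, SE 0.14, adjusted p = 2.1e-08, limma). None of these 9 passed between dKO-LAP* and dKO cells with limma, edgeR or DESeq2 (4.46% of all genes did with limma), and 2 had an unadjusted p under 0.05 (limma).

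**Figure D4:**
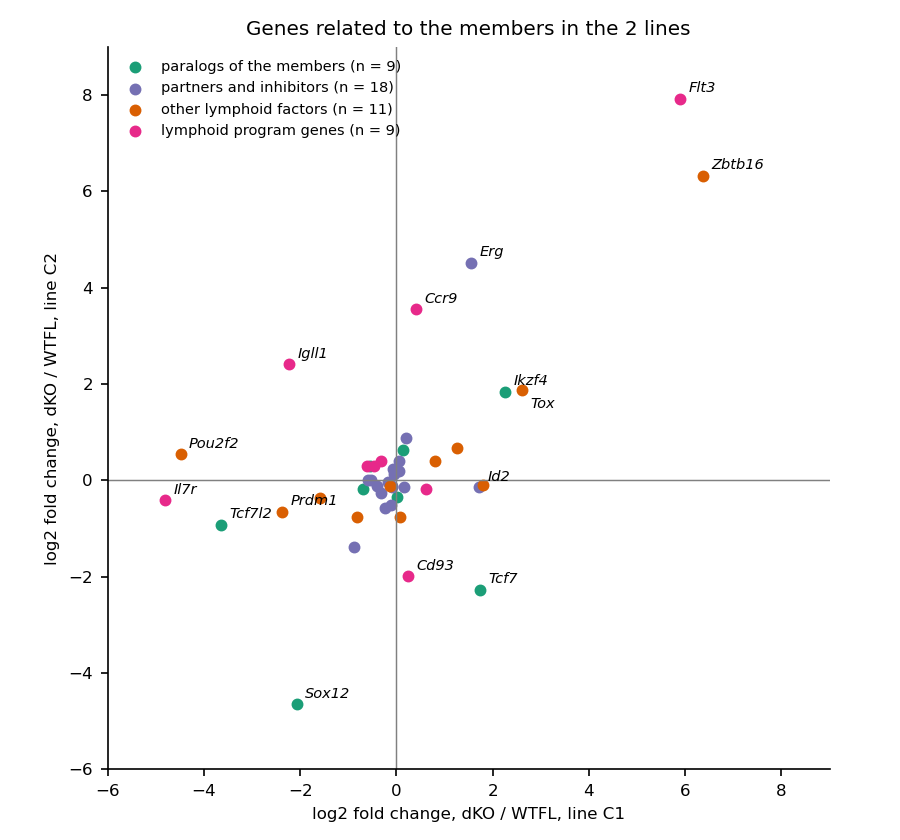
Fitted log2 fold changes between dKO and WTFL cells in line C1 (horizontal axis) and line C2 (vertical axis) of the tested genes of 4 lists: 9 paralogs, 18 partners and inhibitors, 11 other lymphoid factors and 9 genes of the lymphoid program. Flt3 and Zbtb16 lie far up on both axes, where the fit depends on the added constant since WTFL levels were near 0, while Pou2f2 and Il7r lie far left and near 0 in line C2.

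The 5 group means of each member on the log2 scale were set beside those of all tested genes, and the 2 genes with the smallest root mean square difference were taken. Ikzf1 was nearest to Brox and BC048403 (0.03 each, with a range of 0.64 over the groups for Ikzf1 itself), and Ets1 to Foxn3 (0.05) and Grik5 (0.06). Tcf4 was nearest to Usp25 (0.08) and Atrnl1 (0.12), and Sox4 to Inka2 (0.12) and Gimap1 (0.18). Bcl11a was nearest to Lox (0.18), which had 347 normalized reads in WTFL cells of line C1 and none in any other group, and to Il1a (0.44). Ikzf2 was nearest to Hmga2 (0.37), with 0 in both WTFL groups, 118 and 232 in dKO cells of lines C1 and C2 and 68.2 in dKO-LAP* cells, and to Rab38 (0.51). The measure describes these 5 group means only.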

How the data were processed

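Polyadenylated RNA of 15 cultures (5 groups of 3) was sequenced as stranded paired-end libraries. Per the labels, the authors aligned reads to mm10 with STAR 2.5.3a, counted them per gene with HTSeq 0.10.0 and normalized with DESeq2 1.26.0. The annotation and the strand setting of the counting are not given in the sources used here. The deposited values are signal, namely read counts per gene divided by a size factor for each library (0.747 to 1.13). They were whole multiples of 1 step per column in 100.0% of values within 0.1, which gave back the reads. The table has 53379 genes and 5 counters of unassigned reads (22.4 to 26.2% of a library), which were left out, and 3 further columns matched no sample and were not used.

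The members and all gene lists were chosen with earlier results of these data known, and a few genes of the lists are not reported here. The fit used limma 3.58.1 on log2(normalized reads + 1), a trended prior, a mean for each group, all 15 libraries in 1 fit, two-sided tests and Benjamini-Hochberg adjustment over 12673 genes, those at 10 or more normalized reads in 3 or more libraries. Such p-values measure the spread between samples of 1 line each. Lower bounds use 3 reads per library, and intervals and bounds cover counting error only. Per-kb levels use merged exons of GENCODE vM21, from which positions come. Overlapping genes had at most 4 reads in a library at any member. All members are named, and from each other list at most 4 called genes per comparison with the largest change and those called in the same direction in both lines. Alternatives were pseudocounts of 0.1 and 5, no filter, quantile normalization, a fit of the compared groups alone, the replicate number as a block, edgeR 4.0.16 and DESeq2 1.42.0 on the recovered reads, and each library left out. Scripts were tested on simulated data first.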

Additional observations from a re-analysis of the deposited data

Results flagged for a closer look

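For the members, the genes named by rule and Tcf12, effects of dKO that differed between the lines are listed as the log2 effect in line C2 minus that in line C1. Among the members these were Ikzf1 (0.62), Tcf4 (1.22) and Ets1 (−1.07), which held in all 8 alternative settings and with each library left out. Bcl11a also passed (8.88), but it entered the test only through WTFL cells of line C1 and had to differ. With all other groups at the floor its value depends on the added constant and the tool (6.45 to 12.51 over the settings), and nothing is read from it. In the other lists the differences were 2.72 for Tcf7l2, −4.00 for Tcf7, 0.49 for Tcf3, 0.83 for Tcf12 (singled out after its values were seen), −1.87 for Id2, 2.96 for Erg, 0.68 for Runx1, 5.02 for Pou2f2, −0.41 for Runx3, 4.64 for Igll1, 2.04 for Flt3, −0.80 for Notch1 and −2.24 for Cd93. Each passed an interaction test across all genes (limma, adjusted p of 6.2e-07 for Cd93 and Pou2f2 to 0.019 for Id2). That for Igll1, which was at the floor in WTFL cells of line C2, held in all 8 settings with values from 2.82 to 6.36. That for Flt3, which was near 0 in all WTFL cells, was lost in 3 of 8 settings, with values from 0.43 to 2.32 and an adjusted p of up to 0.79 (pseudocount 0.1, edgeR and DESeq2). The differences for Il7r (4.39), Ccr9 (3.14) and Sox12 (−2.58) also passed, but these genes entered the test through 1 group alone and had to differ, so nothing is read from them. That for Tcf7 (−4.00) passed too. Within each line Tcf7 reached the minimum only in the higher of WTFL and dKO cells, so its value is a description. Il7r lost its call in 2 of 8 settings and Ccr9 in 3. The difference for Sox12 held in 4 of 8 settings, with values from −2.58 to −0.03 and losses under a pseudocount of 0.1, quantile normalization, edgeR and DESeq2, and in 8 of the 15 fits with a library left out. It was lost without the third WTFL or the second or the third dKO library of line C1, the second or the third WTFL library or the first or the third dKO library of line C2. That for Id2 was lost without the second or the third WTFL library of line C2 (adjusted p = 0.052 each, limma). Groups of 3 libraries are too small for the outlier test used here, and none was made.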

How the results depend on the processing

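The 33 member fold changes gave 264 values under the 8 alternative settings: 256 kept their direction and their side of the threshold, and 8 lost a call. Of these, 7 were Ets1 between dKO and WTFL cells of line C2 and 1 was Ikzf1 between dKO-LAP* and WTFL cells. With 1 library left out, 477 of 495 values stayed, 13 lost a call, 1 gained one and 4 turned. The turned values were differences near 0: Sox4 between the lines' effects (−0.01 to 0.33), and between the WTFL cells Sox4 (−0.29 to 0.05) and Ets1 (−0.15 to 0.06). For the 54 called changes of other genes, no value turned, and 26 of 432 values under other settings and 34 of 810 with a library left out lost a call. In the former were the differences between the lines of Ccr9, Flt3 and Sox12 under a pseudocount of 0.1, edgeR and DESeq2, that of Il7r under the first and edgeR, and that of Sox12 also under quantile normalization.

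Over all genes, 565 passed between dKO-LAP* and dKO cells, and 276 to 728 did with 1 library left out. It fell to 297 and 276 without the second or the third dKO-LAP* library and to 333, 278 and 366 without the first, the second or the third dKO library, where fewer samples entered. Other settings gave 403 to 787. No other count of calls moved by more than 1.5 times. Replicate numbers showed no clear pairing: deviations of same-numbered libraries correlated at −0.32 to 0.30 over 30 pairs of libraries, 5 above 0.1. Of the 30, 11 were best with their own number. With 3 libraries in a group such a check cannot exclude a shared batch. The fit with the replicate number as a block called 5, 3, 4, 1, 6 and 2 members in the comparisons dKO against WTFL of C1, of C2, between the lines' effects, dKO-LAP* against dKO, dKO-LAP* against WTFL and between WTFL cells, and 4557, 4619, 3583, 488, 3994 and 5028 genes. Depth limited Ikzf3, Satb1, Bach2 and Lef1, since 3 reads correspond to 2.65 to 4.01 normalized reads in a library.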
